A study of Mus musculus with 4 samples.

Results

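The regions described here are NKX2.2 peak summits that lie beside 2 genes at once. A summit belonged to this set when it lay within 1 kb of a boundary, meaning the start or end coordinate, of 2 or more different protein-coding genes of the mouse assembly GRCm38 on chromosomes 1 to 19 and X. Of 7384 summits in the deposited list, 7380 were placed on these chromosomes and 431 met the rule, 5.84% of those placed. The rule used positions alone, so scores, gene orientation, promoter sequence and gene kind were not part of the choice.

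NKX2.2 is a homeodomain transcription factor of the endocrine pancreas and ventral neural tube that can activate or repress its targets. Where it sits on DNA was mapped by ChIP-seq, the sequencing of chromatin fragments pulled down with an antibody, in wild-type alphaTC6 cells, a mouse line with features of glucagon-producing alpha cells. The groups are 2 libraries of DNA enriched with an NKX2.2 antibody and 2 of input DNA, all from this line with no other treatment given in the labels. The series' design text calls the replicates biological; whether they were pooled before peak calling is not given in the sources used here, and a cell line stands for alpha cells only as far as its own state allows. The outcome is 1 list with 1 score per summit, the authors' −log10 q-value against input, and it holds no value per library. Depth is therefore unknown, no value has a replicate error, and summits are not replicates, so all comparisons are descriptions with counting intervals and no test.

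Genes that lie close together can face each other in several ways. In a divergent pair the genes are transcribed away from each other and their starts share a short stretch of DNA, often a CpG-rich promoter that works in both directions. In a tandem pair the end of one gene lies next to the start of another, and in a convergent pair the ends meet. Divergent promoters are well known for genes needed in every cell, such as those of DNA repair, protein folding and mitochondria.

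Some of these shared promoters can be read in full, because the whole stretch between both starts fell within a promoter window of the RefSeq tables (build GRCm38.p6). For 32 divergent pairs with a summit between the genes this was the case, with a median stretch of 139 bases and a median GC content of 59.9%. The stretches shown next are the 2 with the highest scores, the one with the most CCAAT boxes, and the only one that holds an NKX2 core, the last pair of stretches being chosen after their motifs were seen. They are printed 5′ to 3′ on the plus strand, from the base after one gene to the base before the other, and capitals mark the motifs searched. Each motif was searched on both strands, and overlapping or adjoining matches run together.
Xab2 and Pet100, chr8:3621335-3621550: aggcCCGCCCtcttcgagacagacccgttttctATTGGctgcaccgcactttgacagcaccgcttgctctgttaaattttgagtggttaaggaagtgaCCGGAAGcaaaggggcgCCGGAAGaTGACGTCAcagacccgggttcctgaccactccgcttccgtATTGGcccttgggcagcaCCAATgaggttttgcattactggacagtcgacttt
Zfp142 and Bcs1l, chr1:74588134-74588288: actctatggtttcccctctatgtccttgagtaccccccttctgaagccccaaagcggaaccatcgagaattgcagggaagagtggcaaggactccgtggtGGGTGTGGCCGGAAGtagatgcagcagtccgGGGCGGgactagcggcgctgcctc
Mmab and Mvk, chr5:114444074-114444263: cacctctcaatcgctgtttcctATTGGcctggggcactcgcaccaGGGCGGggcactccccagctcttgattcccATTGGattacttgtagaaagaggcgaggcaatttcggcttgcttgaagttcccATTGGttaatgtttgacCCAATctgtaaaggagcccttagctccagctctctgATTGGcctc
Nup88 and Rpain, chr11:70969974-70970129: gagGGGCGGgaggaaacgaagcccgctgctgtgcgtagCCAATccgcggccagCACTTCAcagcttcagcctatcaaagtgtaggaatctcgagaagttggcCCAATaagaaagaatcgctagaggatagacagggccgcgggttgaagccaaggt

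Between Xab2, a splicing and DNA repair factor, and Pet100, an assembly factor of cytochrome c oxidase, the summit lay at base 80 of 216 with a score of 260.2. That stretch holds 3 CCAAT boxes, 2 ETS motifs, 1 GC box and 1 CRE. Between Zfp142, a zinc finger gene, and Bcs1l, an assembly factor of respiratory complex III, the summit was at base 24 of 155 with a score of 123.6, and the KLF and ETS motifs lie directly next to each other. Mmab and Mvk, enzymes of cobalamin and mevalonate metabolism, had a summit with a score of 29.8 at base 17 of a stretch with 5 CCAAT boxes. Nup88, a nuclear pore protein, and Rpain, an import partner of replication protein A, had one with a score of 13.6 at base 109 of 156, on a stretch with 1 NKX2 core.

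The first comparison asked how often close gene pairs are shared targets, given how many such pairs the genome holds. A close pair was taken as 2 protein-coding genes with boundaries at most 2 kb apart. There were 4810 such pairs, made of 7048 of 21631 genes, and 434 of them, 9.02% (95% Wilson interval 8.25% to 9.87%), had a shared summit. Chromosome 18, with 511 genes, gave 457 of these pairs, and 2 of its pairs had a shared summit. Intervals for pairs, here and below, count each pair as separate. Pairs at one place can share genes, so these intervals can be too narrow. One summit can serve several pairs when 3 genes meet, which is why pairs and summits differ in number. The 431 summits lay at 841 different genes, 3.89% of all protein-coding genes and 11.9% of those in a close pair.

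Shared boundaries were a small target with many summits. Sequence within 1 kb of 2 or more genes made up 5.82 Mb, against 72.6 Mb within 1 kb of exactly 1 gene. The shared sequence held 74.1 summits per Mb (95% exact Poisson interval 67.3 to 81.4), the single-gene sequence 23.8 (22.7 to 24.9), and the rest of the gene-spanning genome 2.06 (2.01 to 2.12). Shared sequence thus held 3.12 times the density of single-gene sequence (exact interval 2.80 to 3.47). Put as shares, it was 7.42% of all boundary sequence and carried 20% of the 2155 summits near a boundary (Wilson interval 18.4% to 21.7%).

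Orientation separated the pairs further. Strand was known for 17274 of the 21631 genes, those found in the promoter table, which gave both strands for 3129 close pairs and for the nearest pair of 334 of the 431 summits. Divergent pairs had a shared summit in 249 of 1037 cases, 24.0% (Wilson interval 21.5% to 26.7%). Tandem pairs had one in 75 of 1002 cases, 7.49% (6.01% to 9.28%), and convergent pairs in 9 of 1061, 0.848% (0.447% to 1.60%). These 3 orientations are about equally common among close pairs, at 33.1%, 32.0% and 33.9%, and their intervals for a shared summit do not overlap. Of the 334 summits with both strands known, 75.1% (70.2% to 79.5%) were at divergent pairs, 22.5% at tandem pairs and 2.40% at convergent pairs. The 29 nested pairs on opposite strands had no shared summit.

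Pairs without a known strand had a shared summit in 101 of 1681 cases, 6.01%. These include all 457 close pairs of chromosome 18, and on the other chromosomes the share was 99 of 1224, 8.09%.

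**Figure D1:**
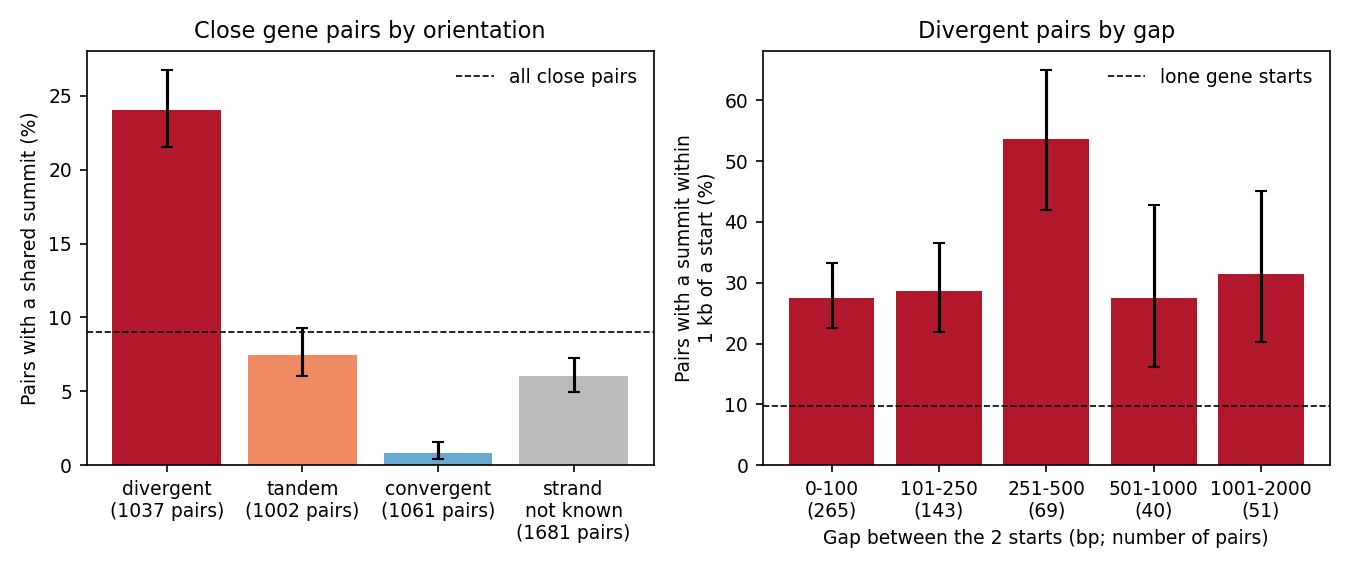
Left, the share of close gene pairs with a shared summit by orientation, with 95% Wilson intervals and a dashed line for all close pairs; divergent pairs reach 24.0% and convergent pairs 0.848%. Right, the share of divergent pairs with no other gene boundary nearby that had a summit within 1 kb of either start, by the gap between the starts, with a dashed line for lone starts (9.81%); pairs with a gap over 250 and up to 500 bp stand highest at 53.6%.

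Divergent pairs were next set against lone starts, which have no other protein-coding boundary within 2 kb. Of 12069 lone starts, 9.81% (Wilson interval 9.29% to 10.4%) had a summit within 1 kb. Of 568 divergent pairs with no other gene boundary within 2 kb, 178 had one within 1 kb of either start, 31.3% (27.7% to 35.3%). The windows of pairs are longer, so densities were compared as well. Divergent pairs held 139.2 summits per Mb (Poisson interval 119.7 to 161.0) against 49.9 at lone starts (47.1 to 52.8), a ratio of 2.79 (exact interval 2.38 to 3.27). A pair holds 2 starts against 1, which neither the share nor the density corrects for. The part of this in the ratio was not tested. Counted per start, 29.8% of the 1136 starts in these pairs had a summit within 1 kb, though most such summits serve both starts. Tandem pairs treated the same way had a summit in 109 of 690 cases, 15.8% (13.3% to 18.7%), above the interval of lone starts. In density they had 56.5 summits per Mb (46.5 to 67.9), which overlaps the interval of lone starts. Convergent pairs had 4.24 (1.70 to 8.73) and lone ends 3.20 (2.53 to 4.01).

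Around the starts, summits were most frequent in the same bin at both kinds of site. At lone starts, 26.9 summits per 1000 starts fell in the 100 bp just upstream and 18.3 in the first 100 bp of the gene. At starts of divergent pairs the same bins held 73.1 and 56.3. In the next 100 bp upstream, which in many pairs lies in or beyond the partner's start, divergent starts held 64.3 and lone starts 14.4. Between 400 and 499 bp into the gene both kinds were low, at 1.76 and 2.07.

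**Figure D2:**
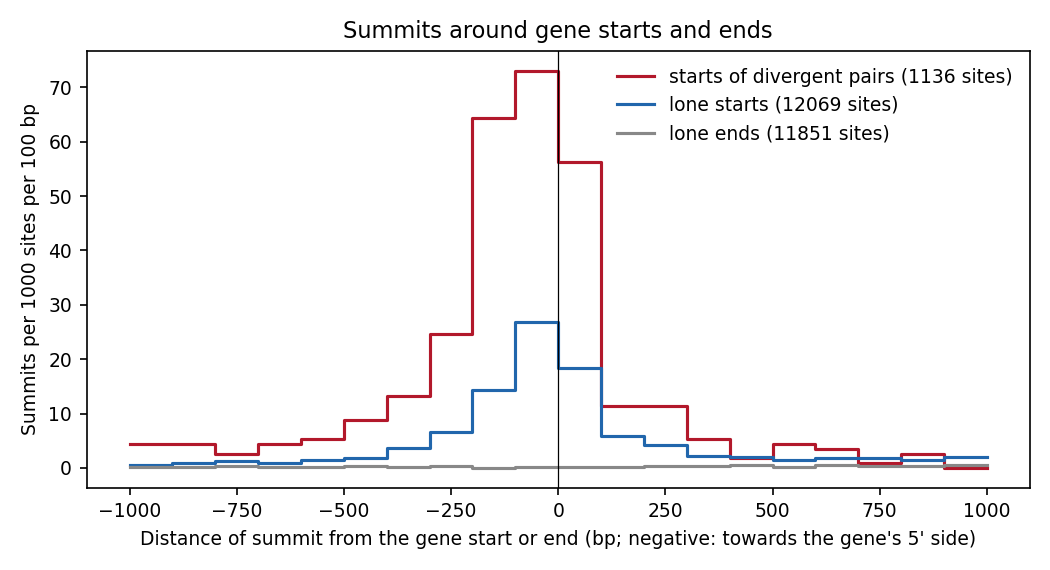
Summits per 1000 sites in bins of 100 bp around the starts of divergent pairs, lone starts and lone ends; negative distances lie on the 5′ side. Starts of divergent pairs peak at 73.1 and lone starts at 26.9 in the bin just upstream, while lone ends stay under 1; a summit of a divergent pair is counted once for each start within range.

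CpG-rich promoters moved with this difference. A promoter was called CpG-rich when the RefSeq window, from 250 bases before to 50 after a start, had a GC content of at least 50% and an observed-to-expected CpG ratio of at least 0.6. Lone starts with such a promoter had a summit in 18.1% of 4087 cases (Wilson interval 17.0% to 19.3%), and lone starts with a CpG-poor one in 4.31% of 4920. Divergent pairs with CpG-rich promoters on both sides had one in 101 of 294 cases, 34.4% (29.2% to 40.0%). Within CpG-rich promoters the density was 159.0 summits per Mb at pairs (129.5 to 193.1) against 92.3 at lone starts (85.9 to 99.1), intervals that do not overlap. The share of pairs with a summit was 3.19 times that of lone starts over all promoters and 1.89 times within CpG-rich ones. These shares and densities set 2 starts against 1 without correction. Whether CpG-rich pairs exceed what 2 separate CpG-rich starts would give was not tested. Of 39 divergent pairs with CpG-poor promoters on both sides, 2 had a summit, 5.13% (1.42% to 16.9%), an interval that includes the 4.31% of CpG-poor lone starts. Of 49 with 1 promoter of each kind, 15 had one (19.5% to 44.5%). Counted per start, CpG-poor starts of divergent pairs had a summit in 12.5% of 168 cases (8.32% to 18.4%), above the interval of CpG-poor lone starts (3.78% to 4.91%). These starts include those with a CpG-rich partner, and a summit near the partner's start can count for both. Transcription of these promoters was not analysed here, and its part in the result was not tested.

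The counts also differed with the gap between divergent starts. With a gap of up to 100 bp, 27.5% of 265 pairs had a summit near either start (Wilson interval 22.5% to 33.2%), and with over 100 and up to 250 bp 28.7% of 143 (21.9% to 36.6%). With over 250 and up to 500 bp it was 37 of 69 pairs, 53.6% (42.0% to 64.9%). Wider gaps gave 27.5% of 40 pairs at up to 1000 bp and 31.4% of 51 at up to 2000 bp. The pairs with gaps of over 250 and up to 500 bp thus stood above the pairs with shorter gaps, with intervals that do not overlap, but their interval overlaps those of the wider gaps. Per Mb of window, the 3 classes up to 500 bp held 134.4 (105.4 to 169.0), 136.1 (98.1 to 183.9) and 229.7 summits (161.7 to 316.6), and these intervals overlap. With CpG-rich promoters on both sides the shares ran 27.4%, 32.1% and 64.9% for the first 3 classes, in the last case 24 of 37 pairs, and their densities again had intervals that overlap.

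Within the 1 kb that the rule allows, the nearer gene boundary, start or end, was a median of 86 bp away (quartiles 30 and 172.5) and the second gene's a median of 290 bp (140 and 559.5). For divergent pairs these medians were 68 and 214 bp, and for tandem pairs 110 and 487 bp. In tandem pairs 68 of 75 summits had an end of one gene and a start of the other as nearest boundaries. Of all 431 summits, 140 lay between genes, 253 inside 1 of the genes and 38 inside 2, where genes overlap. At divergent pairs whose genes do not overlap, summits lay between the genes in 10 of 76 cases at gaps of up to 100 bp and in 23 of 40 at gaps of over 250 and up to 500 bp.

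Some summits lay at the very edge of the rule. Just inside, a summit with a score of 13.4 lay 1000 bp from the second gene, Prr12, and one with a score of 11.2 lay 990 bp from Rad51b. Just outside, summits lay 1007 bp from Ing5 (score 17.8), 1012 bp from Fam72a (12.9) and 1013 bp from Apoa2 (92.8).

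Scores, which the rule did not use, were compared next. The 431 summits had scores from 2.204 to 515.1, with a median of 13.04 (order-statistic 95% interval 11.3 to 14.3) and quartiles of 7.19 and 22.8. Summits at a single gene's boundary had a median of 12.4 (11.9 to 12.9), so the medians differed by 0.62. The far ends of both median intervals, set against each other, give a range from -1.66 to 2.42. This range is wider than a 95% interval of the difference would be. Summits away from boundaries had a median of 14.3 (13.9 to 14.8). Scores of 100 or more were found at 15 shared summits, 3.48% (Wilson interval 2.12% to 5.66%), against 3.31% at single boundaries, 5.80% away from boundaries and 5.08% over the whole list. The median intervals of shared and single-gene summits overlapped, and no difference in score between them was shown. Summits away from boundaries included more of the highest scores than single-gene summits did (5.20% to 6.47% against 2.56% to 4.26%).

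By orientation the medians were 12.8 for divergent (10.97 to 14.7), 10.7 for tandem (7.92 to 14.6) and 14.1 for pairs without a known strand (11.3 to 18.2), and these intervals overlap. The 8 convergent summits ran from 2.204 to 59.2. The highest of them, named after its value was seen, lay between Map4, a microtubule-associated protein gene, and Dhx30, an RNA helicase gene, on chromosome 9.

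**Figure D3:**
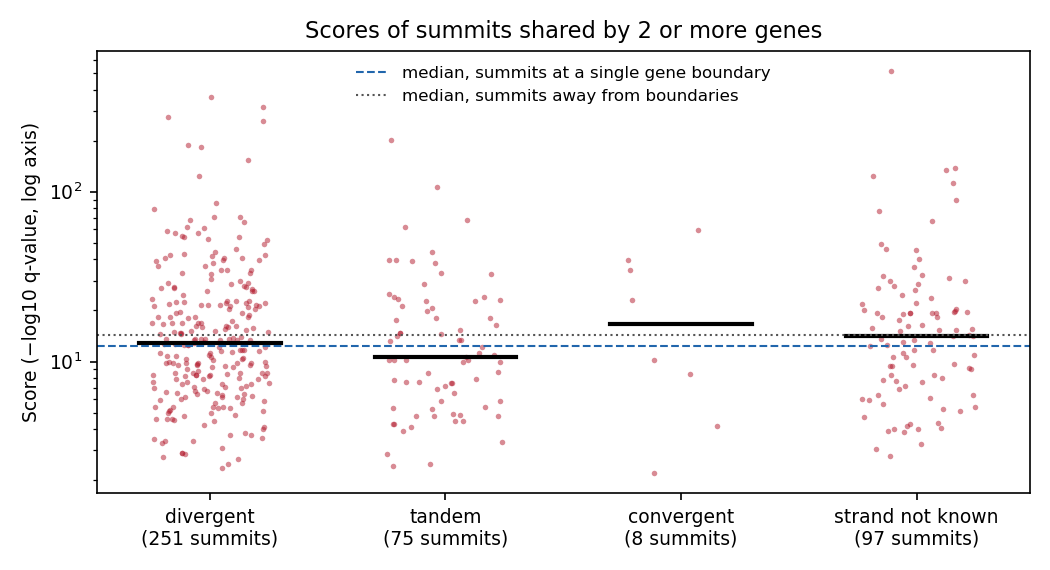
Score of each shared summit (−log10 q-value, log axis) by orientation of its nearest gene pair; thick lines are medians and thin lines the medians of summits at a single gene boundary (12.4) and away from boundaries (14.3). The medians of 12.8, 10.7, 16.6 and 14.1 lie near both lines, and the highest point, at 515.1, belongs to a pair without a known strand.

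The highest score belonged to a summit at position 105400158 of chromosome 7, 16 bp from a boundary of Fam160a2 and close to the start of Cnga4, genes that overlap by 119 bp. Cnga4 encodes a subunit of the cyclic nucleotide-gated channel of olfactory neurons. With 515.1, this summit ranked 29 of all placed summits. Next came a summit between Kirrel2 and Nphs1, divergent genes for adhesion proteins of the nephrin family, on chromosome 7 (position 30457791), which scored 362.4. It lay 276 bp from one start and 416 bp from the other, across a gap of 691 bp.

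A summit that scored 314.5 was inside a gene at Pcid2 and Cul4a on chromosome 8, 513 bp from the nearer start. Pcid2 takes part in mRNA export, and Cul4a is the scaffold of a ubiquitin ligase. Tctn3, a gene of the ciliary transition zone, and Entpd1, which encodes an enzyme that breaks down extracellular ATP, start 41 bp apart on chromosome 19. Their summit had a score of 275.4 and lay 10 bp from the start of Entpd1. Erh and the zinc transporter gene Slc39a9 overlap at their starts by 229 bp on chromosome 12, and their summit, inside both, had a score of 188.8. Smtnl1 and Timm10, an import chaperone gene of the mitochondrial intermembrane space, had 2 shared summits on chromosome 2, with scores of 154.4 and 3.70.

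Other summits among the 20 highest lay at genes of varied roles. Alg2, an enzyme gene of N-glycosylation, and Sec61b, a subunit of the protein-conducting channel of the endoplasmic reticulum, had a summit with a score of 137.9 on chromosome 4, 25 bp from the start of Sec61b. Atp6v0d1, which encodes a subunit of the vesicular proton pump, and Agrp, which encodes the agouti-related neuropeptide, had one with 135.1 on chromosome 8. It lay 72 bp from the start of Atp6v0d1 and 559 bp from Agrp. Usp5 and Cdca3, for a deubiquitinase and a cell division protein, had one with 124.1 on chromosome 6, and Dbndd1 and Gas8, the latter for a part of motile cilia, had one with 113.1 on chromosome 8.

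Wdr54 and a gene model without a name, 1700003E16Rik, overlap at their starts and had a summit with 182.7 on chromosome 6. The 2 tandem summits with a score of at least 100 were at Spef1l and Adam8 (202.4), 5 bp from the start of Spef1l, and at Aspdh and Josd2 (106.2), both on chromosome 7. The last 4 of the 20 highest had scores from 71.2 to 85.8 and lay at Wbp11 and BC049715, Rpa3 and Umad1, Rnf5 and Agpat1, and Kif24 and Nudt2. Rpa3 encodes a subunit of replication protein A, the factor that coats single-stranded DNA.

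Only 5 pairs held 2 shared summits, and all 5 were divergent. Besides Smtnl1 and Timm10 they were 6430550D23Rik and Ergic3 (scores 61.3 and 2.91), Pradc1 and Cct7 (15.9 and 28.9), Elapor1 and 1700013F07Rik (12.7 and 16.1), and Prdx5 and Trmt112 (4.61 and 7.49). Cct7 encodes a subunit of the cytosolic chaperonin and Ergic3 a protein of the early secretory pathway. A boundary of 3 genes lay within reach of 4 summits, with scores from 5.26 to 21.2. The highest of these was at Alkbh1, Nrp and Slirp on chromosome 12. No summit lay near 4 or more genes.

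The kinds of genes at shared summits were compared through 26 lists defined by gene symbol, against 3.89% of all protein-coding genes. Of 76 DNA repair genes, 13 were at a shared summit, 17.1% (Wilson interval 10.3% to 27.1%). Among them were Xpc (score 20.4), which acts in nucleotide excision repair, and Atm (17.98), the kinase that signals double-strand breaks. Of 78 mitochondrial ribosomal protein genes there were 12, 15.4% (9.03% to 24.99%), led by Mrps16 (32.9), Mrpl2 (28.9) and Mrpl43 (21.6). Of 80 chaperone genes there were 11, 13.8% (7.85% to 23.0%), led by Cct7, Hspb11 (19.6) and Dnajc17 (18.2). Hspb11 carries a heat shock symbol but is known as a ciliary transport protein.

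These lists also hold more close pairs than the genome does, so the share was set against genes in a close pair as well. Of all genes, 32.6% were in a close pair, but 69.7% of DNA repair genes, 64.1% of mitochondrial ribosomal genes and 47.5% of chaperone genes were. Among genes in a close pair, 24.5% of the DNA repair genes (14.9% to 37.6%), 24.0% of the mitochondrial ribosomal genes (14.3% to 37.4%) and 28.9% of the chaperone genes (17.0% to 44.8%) were at a shared summit, against 11.9% of all genes in a close pair. Restricted to genes in divergent pairs, the shares were 10 of 26, 10 of 29 and 10 of 21, and over all genes 497 of 2054, 24.2% (22.4% to 26.1%). The intervals of the DNA repair list (22.4% to 57.5%) and of the mitochondrial ribosomal list (19.9% to 52.7%) overlap that of all genes, and that of the chaperone list (28.3% to 67.6%) lies above it. Histone genes and zinc finger genes, described further on, lay under it. The 10 chaperone genes at divergent pairs include Hspb11, so the share of the list without it is lower. Its lower limit of 28.3% is already close to the 26.1% of all genes. The list is therefore not taken to exceed all genes in divergent pairs. With 26 lists examined and no test made, these are descriptions.

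Several other lists, most of them of genes used in every cell, lay above 3.89% with wide intervals. RNA polymerase subunits had 4 of 28 genes at a shared summit (14.3%), led by Polr3g (21.4), the spliceosome 4 of 34 (11.8%), among them Snrpd2 (18.2), and mitochondrial import 3 of 25 (12%), led by Timm10 and Timm10b (54.9). The 19 genes named Tmem among 238, for transmembrane proteins, made 7.98% (5.17% to 12.1%), led by Tmem145 (27.7). For cytosolic ribosomal proteins, 7 of 87 (8.05%) had one, led by Rpl36 (21.7), and the aminoacyl-tRNA synthetases 3 of 37 (8.11%), among them Ears2 (14.6) and Vars (9.35). The respiratory chain and ATP synthase had 8 of 105 (7.62%, 3.91% to 14.3%), led by Cox11 (52.9), Ndufa5 (40.9) and Ndufb3 (40.5). Translation initiation factors had 4 of 55 (7.27%), led by Eif1ad (33.0). Among genes in a close pair, the shares of these lists ran from 12.5% for the respiratory chain to 22.2% for the spliceosome. Each of their intervals overlaps that of all genes in a close pair, 11.9% (11.2% to 12.7%).

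Histone genes are packed in clusters. Of 99 histone genes 55 were in a close pair and 6 were at a shared summit (6.06%, 2.81% to 12.6%), among them H4c1 and H3c1 with 1 summit of 19.4. Of the histone genes in a close pair this was 10.9% (5.10% to 21.8%), near the 11.9% of all such genes. None of the 26 in divergent pairs was at a shared summit, which allows a share of up to 12.9% by the Wilson interval. Zinc finger genes, often in tandem arrays, had 9 of 465 (1.94%, 1.02% to 3.64%), led by Zfp142, and 2 of the 40 in divergent pairs (1.38% to 16.5%). Of all zinc finger genes, 13.8% had a summit at a boundary of theirs alone, against 7.75% of all protein-coding genes. Solute carriers had 12 of 375 (3.20%), led by Slc39a9, proteasome genes 2 of 51, Rab GTPases 3 of 69 with Rab26 highest (28.5), and cyclins and cell division kinases 3 of 51 with Cdk5 highest (19.8). Olfactory receptor genes, keratin genes, protocadherin genes and HOX genes had none.

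Few islet genes lie in close pairs. None of 14 alpha cell genes and none of 12 beta cell genes was in a close pair, so none could have been at a shared summit. A summit near a boundary of their own was found at 5 and 2 of them, 35.7% and 16.7%, against 7.75% of all protein-coding genes. The 7.75% leaves out genes whose only summits are shared. With those counted, 11.5% of all protein-coding genes had a summit within 1 kb of a boundary. No interval was computed for these small lists. Of 22 islet transcription factor genes 3 were in a close pair and 1 was at a shared summit, 4.55% (0.807% to 21.8%), near the 3.89% of all genes. Of 17 Krüppel-like factor genes 1 was in a close pair and none was at a shared summit. Gene models without a name made 27 of 1517 (1.78%).

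**Figure D4:**
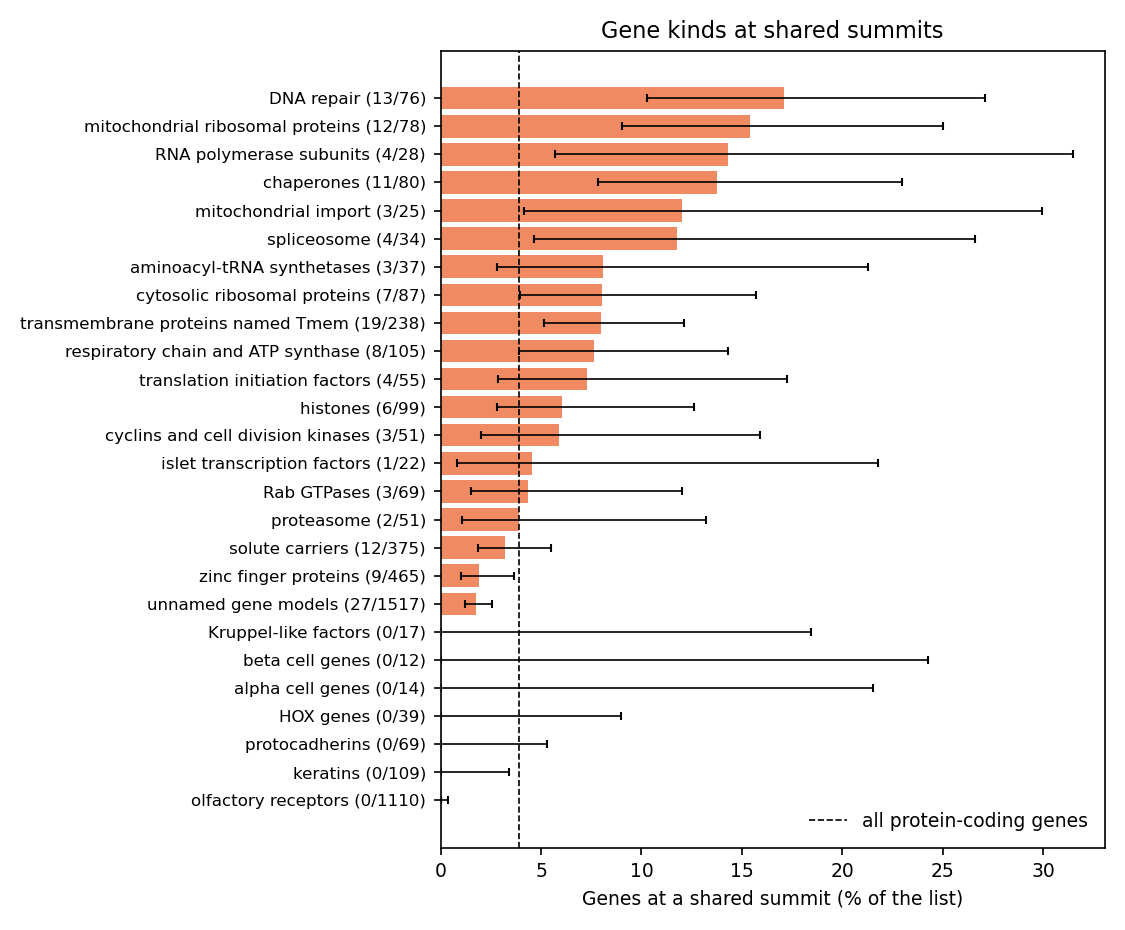
Share of the genes in each list that lay at a shared summit, with 95% Wilson intervals and, in brackets, the number of such genes over the size of the list; the dashed line is the share of all protein-coding genes, 3.89%. DNA repair (17.1%), mitochondrial ribosomal (15.4%) and chaperone genes (13.8%) have intervals above the line. So do RNA polymerase subunits, the spliceosome, mitochondrial import, genes named Tmem and, barely, cytosolic ribosomal proteins and the respiratory chain. Olfactory receptors, at 0 of 1110, have theirs under it, as do keratins, zinc finger genes and gene models without a name.

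Among 14 gene pairs known for lying close together, 3 had a shared summit. Over all close pairs the share was 9.02%, and over divergent pairs, the class of most of the 14, it was 24.0%. So few known pairs cannot be set apart from either share. Atm and Npat, divergent genes for a DNA damage kinase and a histone gene activator, share a gap of 60 bp on chromosome 9 with a summit that scored 17.98. Hspd1 and Hspe1, which encode the mitochondrial chaperonin and its partner and overlap at their starts on chromosome 1, had one with 9.79. Brca1 and Nbr1, 151 bp apart on chromosome 11, had one with 8.51. The other 11, among them the collagen pair Col4a1 and Col4a2, Surf1 and Surf2, Ppat and Paics, Mrps12 and Sars2, and Sirt3 and Psmd13, had no shared summit. At one of the 11, Tbp and Psmb1, a summit with a score of 12.4 lay near 1 of the genes only.

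Promoter sequence was then compared, to see what shared summits have in common beyond position. A promoter window of a protein-coding gene covered 276 of the 431 summits, and 391 windows held one. Of these windows 90.03% were CpG-rich, against 45.6% of all 21020 windows, 79.0% of 915 windows with a single-gene summit, and 67.7% of 1990 windows of genes in divergent pairs without a shared summit. Motif shares were therefore compared within CpG-rich windows, of which there were 352 with a shared summit and 9584 in all. Their median GC content was 62.3% and 65%, and its part in the motif shares was not tested. Some windows hold the same summit and so overlap. The intervals below count each window as separate, which makes them too narrow.

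The CCAAT box, the site of the NFY complex, was in 55.7% of CpG-rich windows with a shared summit (Wilson interval 50.5% to 60.8%) and in 36.1% of all CpG-rich windows (35.1% to 37.1%). Windows with a single-gene summit had it in 51.2% (47.5% to 54.8%), and windows of divergent pairs without a shared summit in 34.6% (32.2% to 37.2%). The CCAAT box was thus more frequent where a summit was called, shared or not. The Mmab and Mvk stretch above, with 5 such boxes, is the extreme case among the 32 read.

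The ETS motif CCGGAAG was in 32.1% of CpG-rich windows with a shared summit (27.4% to 37.2%) and in 20.1% of all CpG-rich windows, but also in 29.3% of those of divergent pairs without a summit (26.9% to 31.8%). Windows with a single-gene summit had it in 26.3% (23.2% to 29.6%). These 3 intervals overlap, and all lie above that of all CpG-rich windows (19.3% to 20.9%). The CRE letters TGACGTCA were in 6.53% of CpG-rich windows with a shared summit (4.39% to 9.61%) against 3.75% of all (3.38% to 4.14%). Windows with a single-gene summit had them in 4.56% (3.27% to 6.34%). For divergent pairs without a shared summit it was 3.86% (2.95% to 5.02%). Both of these intervals overlap that of windows with a shared summit. The YY1 letters AAGATGGCG were in 5.40% against 3.46% and the NRF1 letters GCATGCGC in 4.26% against 6.45%, each with intervals that overlap.

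The NKX2 core TNAAGTG, the letters closest to the known NKX2 site in this search, was in 34 of 391 windows with a shared summit, 8.70% (6.29% to 11.9%), and in 10.9% of all windows. Within CpG-rich windows the shares were 8.81% (6.27% to 12.2%) and 6.52% (6.04% to 7.03%), intervals that overlap. The KLF letters GGGNGTGG were in 22.2% of CpG-rich windows with a shared summit (18.1% to 26.8%), 24.1% of all, and 26.8% of those with a single-gene summit (23.7% to 30.2%). The GC box GGGCGG was in 73.9%, against 76.8% of all CpG-rich windows, and TATAAA in 3.41% against 4.52%. The letters of the GC box and KLF motifs are alike, and no match was removed for lying next to or over another.

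Scores with and without an NKX2 core in the window had intervals that overlap. The 26 with a core had a median of 12.4 (interval 7.86 to 20.3) and the 250 without one a median of 13.4 (11.5 to 15.4). In 11 of the 26 the core lay within 50 bp of the summit. Core and summit both had to lie in one short window, and the share that position alone would give was not examined. The core contained the summit base at Gamt and Dazap1 on chromosome 10 (score 20.3) and at H2ac10 and H3c8 on chromosome 13 (10.2), and lay 3 bp from it at Siglece and Ctu1 on chromosome 7 (27.2). These 3 pairs were picked after their distances were seen. A match is a description of letters and not a binding site.

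Noncoding genes were less often nearby than at single-gene summits. A boundary of a noncoding gene lay within 1 kb of 20 of the 431 shared summits, 4.64% (Wilson interval 3.02% to 7.06%), and of 279 of 1724 single-gene summits, 16.2% (14.5% to 17.997%). Long noncoding RNA genes made most of this, with 14 and 240 summits. Another summit lay within 10 kb of 14.6% of shared summits (11.6% to 18.3%), against 16.6% at single boundaries and 23.1% away from boundaries (22.0% to 24.3%).

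Divergent pairs were also compared by chromosome, again with 2 starts in a pair against 1 lone start. On 18 of the 19 chromosomes with divergent pairs of known strand, the share of such pairs with a shared summit was above the share of lone starts with a summit. The exception was chromosome 16, where 3 of 28 pairs (10.7%) and 10.7% of lone starts had one. On chromosome 1 a shared summit was found at 30 of 58 divergent pairs, 51.7% (Wilson interval 39.2% to 64.1%), and on chromosome 6 at 16 of 32, 50% (33.6% to 66.4%). Lone starts of these chromosomes had a summit in 11.9% and 14.6% of cases. At the other end, chromosome 14 had 1 of 42 divergent pairs (2.38%) and 0.795% of lone starts, and the X chromosome 2 of 29 (6.90%) and 1.63% of lone starts. The 3 shared summits of the X chromosome included one at Gk, which encodes glycerol kinase, with a score of 57.1. The 4 of chromosome 14 included the one at Mrps16.

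**Figure D5:**
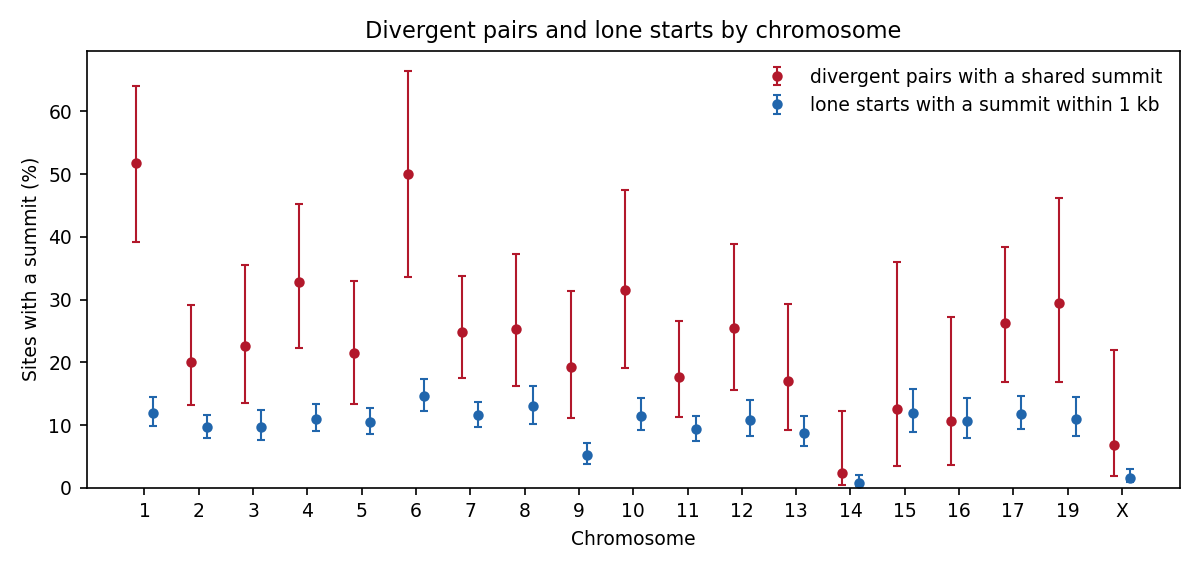
Share of divergent pairs with a shared summit and of lone starts with a summit within 1 kb, by chromosome, with 95% Wilson intervals; chromosome 18, without known strands, is left out. Chromosomes 1 and 6 stand highest for divergent pairs at 51.7% and 50%, with chromosome 14 lowest at 2.38%. A pair holds 2 starts against 1.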

How the data were processed

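The authors used MACS2 to call peaks, as the series' design text states. FastQC, Bowtie2 and the build mm10, another name for GRCm38, are listed per the submitters' processing notes. Scores are taken as the −log10 of the q-value per peak, as the authors deposited them. Their other settings are not given in the sources used here. Summits were written counting from 1 and compared with RefSeq genes of GRCm38.p6. Strand came from the RefSeq promoter table, and a gene's start is its outermost annotated coordinate. CpG classes used windows within 100 bp of that start. Shares have 95% Wilson intervals, densities exact Poisson intervals, and medians order-statistic intervals, all for counting error only. Per-Mb values for the rest used the span between outermost genes.

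Members, lists and motifs were chosen with earlier results of these data known, and the gap classes, lone starts, CpG split, motif distances and comparison by chromosome after the files were seen. Lists go by symbol, so a few names are no true members (Psmc3ip, Zbtb8os). Named genes were those at the 20 highest summits, in pairs with 2 summits, in 14 known pairs, in islet and Krüppel-like lists, and up to 3 per other list by score. Some genes this rule picks are not reported here. The counting code was checked on simulated positions. Work was done in Python 3.11.15 with scipy 1.17.1, pandas 2.3.3 and numpy 2.4.6, and figures with matplotlib 3.10.9. Alternatives were other distances, score minimums and gene sets, merged summits and chromosomes left out.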

Additional observations from a re-analysis of the deposited data

Results flagged for a closer look

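The list also holds 4 summits on contigs that belong to no assembled chromosome, above the 3 that a count of 0 allows. They were not compared with genes.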

How the results depend on the processing

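No paired analysis was possible because replicates have no values of their own in the file, and no replicate could be left out. The density ratio of shared to single-gene sequence was 3.63 with 500 bp to a boundary, 2.67 with 2 kb and 3.48 with pairs of genes that do not overlap only. The number of shared summits was 431 with no minimum and 258 at a score minimum of 10. Their share of boundary summits was 16.5% with 500 bp, 24.3% with 2 kb and 15.5% with pairs that do not overlap. The share of close pairs with a shared summit was 7.92% and 5.36% at score minimums of 5 and 10, and 10.3% with pairs that do not overlap. The score minimum leaves fewer summits by its construction; the cause of the other moves was not tested. The score difference stayed between 0.50 and 1.16 under the 8 alternatives. Merging summits within 500 bp, leaving out unnamed gene models, and leaving out chromosomes 14 and X kept all 5 results within their intervals or within 1.5 times. Unknown depth limits what a missing summit shows.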
